A study of Bombyx mori with 6 samples.

Results

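The genes described here are the 7 silkworm genes that build and remove the UFM1 modification. They are UFBP1 (also named DDRGK1), UFL1, CDK5RAP3, UFC1, UFM1, UFSP1 and UFSP2, chosen by name from the pathway and found by their identifiers among the 16877 gene models of the deposited table. The study sequenced RNA of the silkworm (Bombyx mori) in 6 libraries, of which 3 are labelled siNC, a negative control small interfering RNA (siRNA), and 3 are labelled siUFBP1, an siRNA against UFBP1. The protocols describe larvae of the P50 strain on day 3 of instar 5, each given 2.5 µg of siRNA and, 12 h later, 5 µL of a suspension of BmNPV, the silkworm baculovirus. By that protocol both groups received the virus, and the comparison is between libraries that carry different siRNA labels. Fat body, which stores nutrients and makes most blood proteins in insects, was taken at 24, 48 and 72 h, but no library is labelled with a time, and the protocols speak of 30 larvae without saying how many went into a library. The labels also name BmN, an ovary-derived silkworm cell line, so the source of the RNA is not settled by the labels. Nothing in them says that the libraries of a group came from separate animals or cultures, so the p-values below measure only the spread between these libraries.

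UFMylation is the attachment of UFM1, a small protein related in fold to ubiquitin, to other proteins. UFM1 is trimmed by a protease, carried by the conjugating enzyme UFC1 and attached by a ligase made of UFL1, its adaptor UFBP1 and their partner CDK5RAP3, and the UFM1 proteases take it off again. UFBP1 holds the ligase on the membrane of the endoplasmic reticulum (ER), where in mammals the best known substrate is the ribosomal protein RPL26 on ribosomes docked at the translocon.

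The libraries held 25570725 to 53204480 counts, and siUFBP1 replicate 3 was the deepest. Markers of the fat body took 74.3% to 74.7% of the counts in the siNC libraries and 47.7% to 49.1% in the libraries labelled siUFBP1, with 53 and 54 of 64 listed genes detected. Markers of the silk gland took at most 0.0530% in the siNC libraries and 10.1% to 11.8% in the libraries labelled siUFBP1, with 6 and 8 of 9 listed genes detected. As shares of all counts, the summed markers of testis and sperm, midgut, muscle, hemocytes and cuticle were also higher in every library labelled siUFBP1 than in every siNC library. In the TMM-scaled fit, 28.4% of all genes tested were called lower and 40.0% higher. Of tested markers of testis and sperm, 56 of 58 were higher and 1 lower. For muscle 8 of 8 were higher, for cuticle 39 of 47 with 1 lower, and for midgut 13 of 16 with 2 lower. For silk gland 5 of 6 were higher and 0 lower, and for fat body 1 of 41 was higher and 32 lower. For hemocytes 3 of 18 were higher and 11 lower, and for ovary 1 of 9 was higher and 3 lower. Markers of the ovary took 0.00506% to 0.00516% and 0.00670% to 0.00731%, with 10 and 17 of 29 listed genes detected. In bulk RNA, fewer cells of a type and less RNA per cell cannot be told apart. The siRNA label and the fat body and silk gland shares go together over all 6 libraries, so the design cannot tell them apart either. The part of this shift in the values of the UFMylation genes was not tested, but it bears on how libraries are set on a common scale, so each fold change below is given under several scalings.

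UFBP1 (KWMTBOMO13599), the siRNA target and the ER anchor of the ligase, did not differ beyond the spread between libraries in the TMM-scaled fit, and other scalings gave it either sign. It had 783, 758 and 692 counts in the siNC libraries and 1113, 1140 and 2546 counts in the libraries labelled siUFBP1. After scaling by the trimmed mean of M values (TMM), which sets libraries level on the bulk of their genes, these were 36.5, 31.1 and 34.2 CPM (counts scaled to a common library size) against 32.7, 34.4 and 34.6 CPM. All 3 libraries labelled siUFBP1 lay inside the range of the siNC libraries. The log2 fold change was 0.0043 ± 0.056 (SE, n = 3 per group; adjusted p = 0.951, edgeR's quasi-likelihood test with Benjamini-Hochberg adjustment). Its 95% interval reached from a fall of 7.63% to a rise of 8.92%. For this gene the authors' deposited table gives -0.0039 on the log2 scale (adjusted p = 0.964).

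Scaling decides the sign that UFBP1 takes. With upper quartile scaling its log2 fold change was -0.14 (adjusted p = 0.0406, edgeR), and with library size after fat body and silk gland markers were taken out it was 0.13 (adjusted p = 0.0471). With library size alone it was 0.80, and over all 17 alternatives adjusted p ran from 1.55e-10 to 0.982. The lower end of the 95% interval under upper quartile scaling was -0.26 on the log2 scale. The position of the siRNA site relative to the counted gene model is not known from the sources used here, and the FPKM values imply a model of 521 to 533 bases for UFBP1 against 2893 to 2957 for UFL1.

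**Figure D1:**
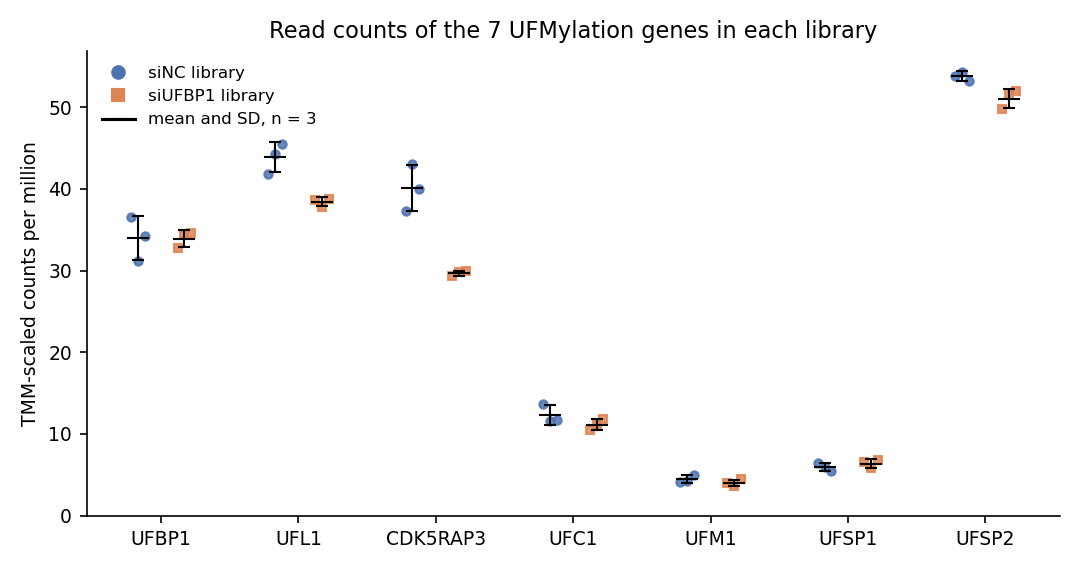
TMM-scaled CPM of the 7 UFMylation genes in each of the 6 libraries, with the mean and SD of each group. UFL1, CDK5RAP3 and UFSP2 show no overlap between the groups, and UFBP1 overlaps completely.

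UFBP1 was also set against 8 genes often used as references in silkworm quantitative PCR, as a ratio of counts within each library that needs no scaling between libraries. Against cytoplasmic actin A3, a cytoskeletal protein, the ratio was 0.0856, 0.0677 and 0.0713 in the siNC libraries and 0.109, 0.113 and 0.119 in the libraries labelled siUFBP1. Against the ribosomal protein gene RpL3 it was 0.0376, 0.0306 and 0.0341, then 0.0240, 0.0246 and 0.0259. The first set lies wholly above its controls and the second wholly below them. By the difference of mean log2 ratios, UFBP1 was 52.9% higher against actin A3 and 16.4% higher against TBP, the TATA-box-binding protein, in the model with the higher mean over all libraries (KWMTBOMO07334). It was 26.9% lower against RpL3 and 27.6% lower against the translation factor EF1-alpha. For the ribosomal protein gene RpS3 and the initiation factor gene eIF4A the differences were -19.8% and -16.5%, and for the ribosomal protein gene RpL32 -14.2%. Against the glycolytic enzyme gene GAPDH the groups overlapped, with a difference of 5.95% (two-sided exact permutation p = 0.5). The groups did not overlap for the other 7 ratios, each with an exact permutation p of 0.1 (adjusted p = 0.114 over 8 ratios), which is the smallest that 3 against 3 libraries can give. Of all other tested genes, 67.2% gave a ratio to UFBP1 that did not overlap between the groups. A ratio also moves with its reference. In the TMM-scaled fit, 2 of the 9 models listed for these references were lower and 6 higher. Over all genes tested, 28.4% were lower and 40.0% higher. The log2 fold changes were -0.61 for actin A3, 0.45 for RpL3 and 0.47 for EF1-alpha, beside 0.0043 for UFBP1. The direction against TBP turned with the gene model. Against the other model of that name (KWMTBOMO07326), UFBP1 stood at ratios of 6.96, 4.73 and 5.35 in the siNC libraries and 4.46, 4.78 and 4.14 in the libraries labelled siUFBP1. These groups overlapped, with a difference of -20.5% (exact permutation p = 0.2), in a comparison added after seeing the data. The used model stood at 7.71 ± 0.442 and 6.64 ± 0.460 CPM and the other at 6.06 ± 0.728 and 7.63 ± 0.647 CPM, so the other was the more abundant in the libraries labelled siUFBP1 (SD, n = 3).

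**Figure D2:**
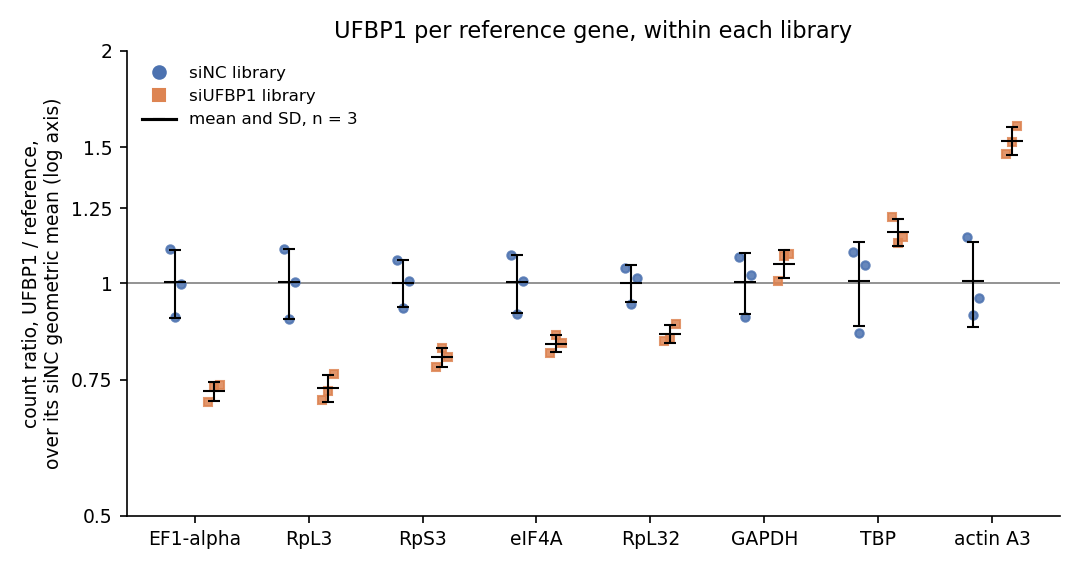
Ratio of UFBP1 counts to each of 8 reference genes within each library, divided by the geometric mean of the siNC libraries, on a log axis, with the mean and SD of each group. The libraries labelled siUFBP1 lie below 1 against 5 references, above 1 against actin A3 and the TBP model KWMTBOMO07334, and across the control range against GAPDH. Each ratio moves with its reference as well as with UFBP1.

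Of the 7 UFMylation genes, 2 were lower in the libraries labelled siUFBP1 (CDK5RAP3 and UFL1), 0 were higher and 5 did not pass an adjusted p of 0.05. By the same rule 68.4% of all 10729 genes tested were called, 28.4% lower and 40.0% higher. All 7 passed the filter on low counts in both groups. Their median log2 fold change was -0.12, and the median of all genes tested was 0.11. Because the level of the target depends on the scaling and on the reference gene, directions refer to the library labels only. With upper quartile scaling 5 of the 7 were lower (35.5% of all genes tested), and with library size after removal of marker genes 1 was lower and 2 were higher (22.8% and 45.7% of all genes). Library size alone turned all 7 higher (80.2% of all genes), and the median of all genes then was 0.92.

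CDK5RAP3 (KWMTBOMO03271), the ligase partner that in mammals helps direct UFL1 to its ribosomal substrate, showed the largest difference of the 7. It stood at 37.3, 43.0 and 40.0 CPM in the siNC libraries and at 29.3, 29.8 and 29.9 CPM in the libraries labelled siUFBP1. The groups were apart, and the libraries labelled siUFBP1 lay closer together than the siNC libraries. The log2 fold change was -0.44 ± 0.053 (SE, n = 3 per group; adjusted p = 8.95e-07, edgeR), a difference of -26.1% with a 95% interval from -31.6% to -20.1%. It was -0.58 with upper quartile scaling and -0.31 with library size after removal of marker genes, and 0.37 with library size alone. Taken relative to the median of all genes in the same fit, these scalings gave -0.55 to -0.54, and the TMM fit gave -0.55. The authors' deposited table gives -0.44 for this gene.

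UFL1 (KWMTBOMO13712), the ligase that attaches UFM1, was the other gene called lower. Its values were 41.9, 44.3 and 45.5 CPM in the siNC libraries and 38.7, 37.8 and 38.8 CPM in the libraries labelled siUFBP1. These groups did not overlap either. The log2 fold change was -0.19 ± 0.046 (SE, n = 3 per group; adjusted p = 0.00131, edgeR), a difference of -12.3% with a 95% interval from -18.0% to -6.27%. The call ended with library size after removal of marker genes (-0.06, adjusted p = 0.253, against a range of 2.70e-09 to 0.253 over 17 alternatives) and the sign turned with library size alone (0.61).

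UFC1 (KWMTBOMO14218), which carries UFM1 to the ligase, stood at 13.7, 11.5 and 11.7 CPM and at 10.5, 11.1 and 11.8 CPM. The groups overlapped, and the log2 fold change of -0.13 ± 0.083 did not pass (adjusted p = 0.166, edgeR). Upper quartile scaling brought it past the threshold at -0.27, and library size alone gave 0.67. UFM1 itself (KWMTBOMO08227), the modifier, was the least counted, with 89 to 103 counts in the siNC libraries and 122 to 326 in the libraries labelled siUFBP1. It stood at 4.15, 4.23 and 5.00 CPM and at 3.97, 3.68 and 4.44 CPM, again with overlap. Its log2 fold change of -0.12 ± 0.13 had a 95% interval of -0.40 to 0.15. That interval includes no difference as well as the -0.19 seen for UFL1.

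The proteases differed in abundance. UFSP2 (KWMTBOMO07886), which in mammals is the main enzyme that removes UFM1 from ER ribosomes, stood at 53.8, 54.4 and 53.2 CPM in the siNC libraries. In the libraries labelled siUFBP1 it stood at 49.8, 51.5 and 52.0 CPM. The groups did not overlap, which held for 71.2% of all genes tested (29.8% lower), but the log2 fold change of -0.074 ± 0.040 did not pass (adjusted p = 0.115, edgeR). Upper quartile scaling gave -0.21, past the threshold, and library size after removal of marker genes gave 0.056. UFSP1 (KWMTBOMO11377), a smaller protease that trims the UFM1 precursor in human cells, stood at 6.39, 5.91 and 5.44 CPM and at 6.53, 5.80 and 6.83 CPM. It was the only one of the 7 with a positive log2 fold change beyond its standard error, 0.12 ± 0.107 (adjusted p = 0.325, edgeR), and its groups overlapped. With upper quartile scaling it was -0.019.

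**Figure D3:**
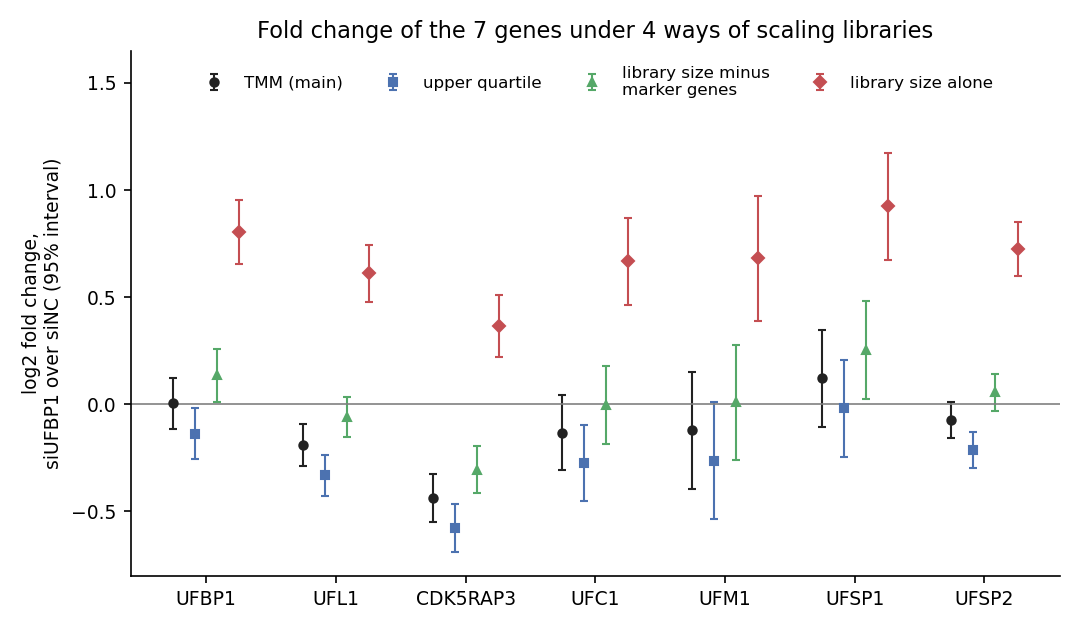
Log2 fold change of each gene, libraries labelled siUFBP1 over siNC, with 95% intervals from edgeR under 4 ways of scaling the libraries. CDK5RAP3 is the lowest of the 7 under each scaling shown, from -0.58 to 0.37, and UFSP1 the highest. Scaling moves all genes of a library alike, so it could not change this order.

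A scaling factor moves all genes of a library alike, so the distances between the 7 genes do not depend on it. Against TMM, the median log2 fold change of all genes moved by -0.14 with upper quartile scaling, by 0.12 with library size after removal of marker genes and by 0.80 with library size alone. Relative to the median of all genes in each of these fits, UFBP1 stayed between -0.11 and -0.10 and UFL1 between -0.31 and -0.30. UFSP2 lay between -0.19 and -0.18 and UFC1 between -0.25 and -0.24. UFSP1 lay at the median, between 0.0070 and 0.014. These positions move when the genes behind the median or the measure change. Without a count filter they were -0.20 for UFBP1, -0.64 for CDK5RAP3 and -0.080 for UFSP1. On log2(FPKM + 1) they were 0.082, -0.36 and 0.096 in the same order.

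The ratio of each of the other 6 genes to UFBP1 within a library gives these distances library by library, and is not a further line of evidence. There were 1.02, 1.38 and 1.17 CDK5RAP3 counts per UFBP1 count in the siNC libraries and 0.895, 0.866 and 0.864 in the libraries labelled siUFBP1. CDK5RAP3 thus had more counts than UFBP1 in each siNC library and fewer in each library labelled siUFBP1. The difference was -26.0% (two-sided exact permutation p = 0.1, adjusted p = 0.3 over 6 ratios), and 27.7% of all other tested genes lay wholly lower against UFBP1. UFC1 was the other gene whose ratio did not overlap, at 0.375, 0.371 and 0.343 and then 0.321, 0.323 and 0.340 counts per UFBP1 count. Its difference was -9.54%, with the same exact permutation p of 0.1, and the nearest libraries of the groups differed in the third decimal only. UFL1 (-12.4%, exact permutation p = 0.2) and UFM1 (-9.81%, p = 0.4, exact permutation) overlapped between the groups. UFSP1 (7.65%) and UFSP2 (-5.19%) overlapped as well, each with an exact permutation p of 0.4. No ratio passed, and with 3 against 3 libraries none could.

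Within the ligase, the ratio of UFL1 to CDK5RAP3 did not overlap between the groups. The same held for 74.7% of all other tested genes set against CDK5RAP3. There were 1.12, 1.03 and 1.14 UFL1 counts per CDK5RAP3 count in the siNC libraries and 1.32, 1.27 and 1.30 in the libraries labelled siUFBP1. All 3 of the latter exceeded all siNC values, a difference of 18.3%. CDK5RAP3 per UFSP2 count went from 0.745 ± 0.0494 to 0.581 ± 0.00649 (SD, n = 3), again without overlap. CDK5RAP3 per UFSP1 count went from 6.80 ± 0.846 to 4.66 ± 0.408, also apart. Of all 21 pairs of the 7 genes, 9 did not overlap between the groups, 4 of them with CDK5RAP3. Beside the share over all other tested genes, lack of overlap does not set the pairs with CDK5RAP3 apart. These pairs were described and not tested.

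**Figure D4:**
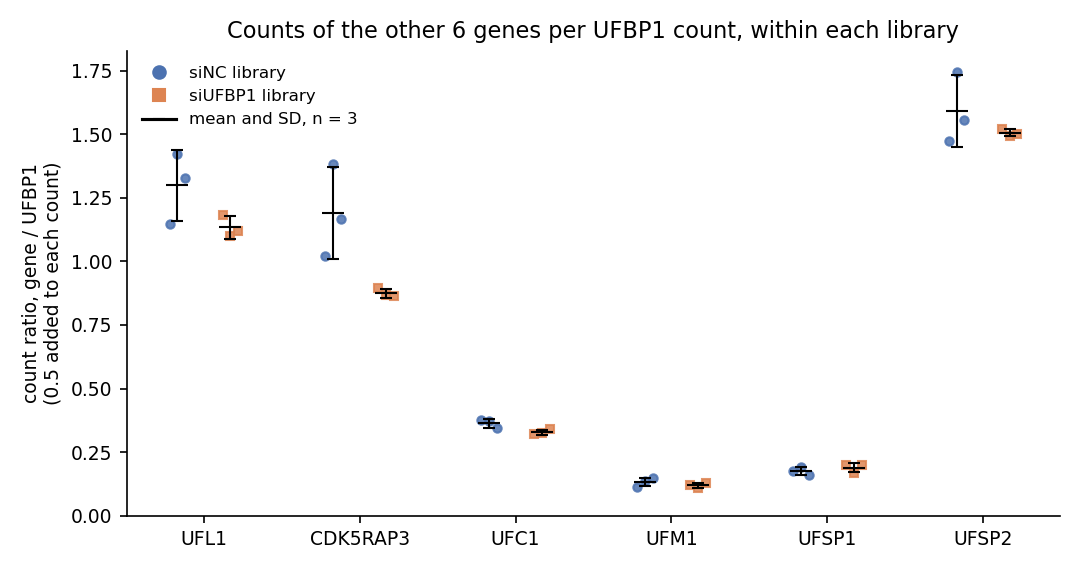
Counts of the other 6 genes per UFBP1 count within each library, with 0.5 added to each count and the mean and SD of each group. CDK5RAP3 lies between 1.02 and 1.38 in the siNC libraries and between 0.864 and 0.895 in the libraries labelled siUFBP1, and the ranges of UFL1, UFM1, UFSP1 and UFSP2 overlap.

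Levels between genes can be compared only per length, for which the authors' FPKM values serve. In the siNC libraries UFBP1 stood first at 52.8, 45.8 and 48.8 FPKM (49.1 ± 3.51, SD, n = 3) and UFSP2 second at 18.2 ± 0.488 FPKM. CDK5RAP3 followed at 15.9 ± 1.30 FPKM, UFC1 at 12.4 ± 1.19 FPKM and UFL1 at 11.4 ± 0.466 FPKM. UFM1 at 5.79 ± 0.538 FPKM and UFSP1 at 5.43 ± 0.476 FPKM came last. UFC1 and UFL1 overlapped over the siNC libraries, as did UFM1 and UFSP1, and the other neighbours in the order did not. UFBP1 and UFSP2 kept ranks 1 and 2 in all 6 libraries. The first rank rests on the short gene model of UFBP1, with an implied 521 to 533 bases against 2893 to 2957 for UFL1. In counts UFBP1 stood below UFL1 and UFSP2 in every library. Whether that model covers the whole transcript was not tested, and the FPKM ratios and shares of UFBP1 below carry the same limit. UFBP1 had 3.90 to 4.84 times the FPKM of UFL1, its partner in the ligase, in the siNC libraries and 4.69 to 5.05 times in the libraries labelled siUFBP1. The FPKM values are scaled to the total of each library without a correction for composition. All 7 genes had higher FPKM in the libraries labelled siUFBP1, and the part of the scaling in this was not tested. UFBP1 stood there at 79.2, 84.0 and 89.8 FPKM. As a share of the summed FPKM of the 7 genes, UFBP1 took 41.5% ± 2.05 and 44.4% ± 0.658, and CDK5RAP3 took 13.4% ± 1.37 and 10.6% ± 0.183 (SD, n = 3).

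**Figure D5:**
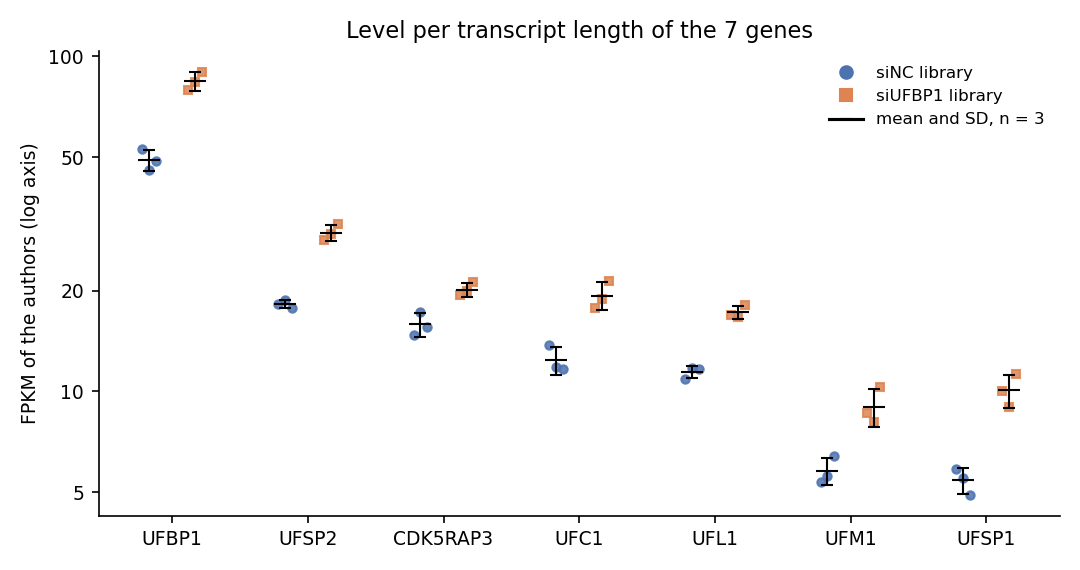
FPKM of the 7 genes in each library on a log axis, ordered by the siNC mean, with the mean and SD of each group. UFBP1 stands highest in both groups, at 49.1 and 84.3 FPKM on average, and UFM1 and UFSP1 lowest. The FPKM of UFBP1 rests on a gene model with an implied length of 521 to 533 bases.

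Of 6 other genes of the pathway, 1 was lower and 3 higher in the libraries labelled siUFBP1, and 2 did not pass, beside 28.4% lower and 40.0% higher over all genes tested. RPN1, a subunit of the oligosaccharyltransferase that in mammals can carry UFM1, was lower by more than its spread (-0.34 ± 0.029, adjusted p = 8.52e-09, edgeR). It turned positive with library size alone, to 0.46. RPL26, the ribosomal substrate, stood at 202, 193 and 188 CPM and at 282, 277 and 306 CPM. Its log2 fold change was 0.57 ± 0.039 (adjusted p = 2.97e-10, edgeR). ODR4, a membrane partner of UFSP2 in mammals, was higher by 0.51 ± 0.077, and SAYSD1, a reader of UFMylated ribosomes in mammals, by 0.55 ± 0.142. These 3 kept their direction under every scaling. TRIP4 and MRE11, which carry UFM1 in mammals, were at 0.075 ± 0.105 and 0.034 ± 0.050 and did not pass. BiP, the ER chaperone named in the title of the study, stood lower than any gene of the pathway in the same fit, at -1.20 ± 0.027, from 2639 ± 56.2 to 1152 ± 8.03 CPM (SD, n = 3). In FPKM its fall was smaller, from 763 ± 14.9 to 572 ± 24.5 (SD, n = 3).

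The genes most like UFBP1 over the 6 libraries were a mitochondrial ribosomal protein L27 (KWMTBOMO07727), the excision repair protein rad23 (KWMTBOMO05719) and an adenylate kinase isoenzyme 6 homolog (KWMTBOMO03003). Their centred log2 CPM differed from that of UFBP1 by a root mean square of 0.028, 0.029 and 0.031 among 4569 genes searched. Nearest to CDK5RAP3 were 2 models of the ubiquitin ligase TRIP12 (KWMTBOMO09125 and KWMTBOMO09126), at 0.021 and 0.025, and a putative alcohol dehydrogenase (KWMTBOMO05865), at 0.029.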

How the data were processed

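The 6 RNA libraries were prepared with the SMARTER mRNA-Seq chemistry (per the labels' protocols). The submitters' processing notes name fastp, which trims reads, and HISAT2, which aligns them across introns. No version, read counter, strand setting or genome build is given in the sources used here, so no coordinates are printed. The deposited table holds raw counts per gene model and the authors' FPKM values, scaled for gene length and depth, per the file headers. It also holds the authors' log2 fold changes and adjusted p-values, made with DESeq2 per the file headers.

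Groups and replicate numbers came from the sample titles. The 7 genes and all lists were chosen with earlier results of these data known. filterByExpr removed 6148 gene models with 0.0479% of the counts, and 10729 were tested with edgeR 4.0.16 (TMM, quasi-likelihood, group as the only term, R 4.3.3), with Benjamini-Hochberg adjustment over all of them and a threshold of 0.05. The common dispersion corresponds to a biological coefficient of variation of 3.87%. Totals of 25570725 to 53204480 counts per library leave a counting error of 10.6% for UFM1 in its lowest library and 3.05% for UFSP2. All pairs of replicates differed beyond sampling noise (chi-square per degree of freedom 2.70 to 14.8, leaving out genes under 50 summed counts). Within-library ratios used counts plus 0.5 and a two-sided exact permutation test (scipy 1.17.1). Named are all 7 genes, all genes of the pathway and reference lists (with 1 listed gene not reported here), up to 4 called genes with the smallest adjusted p of each other list, BiP, and the 3 genes nearest in pattern to UFBP1 and to the gene with the smallest adjusted p. Nearest genes needed a described product and a mean of at least 5 CPM. Alternatives were DESeq2 1.42.0 (size factors and Wald test), limma 3.58.1 (voom on counts, trend on log2(FPKM + 1) and log2(FPKM + 0.1)), upper quartile scaling, library size alone, library size after removal of 73 fat body and silk gland markers, other count filters, a replicate block, the omission of each library in turn and a 2-fold minimum.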

Additional observations from a re-analysis of the deposited data

How the results depend on the processing

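Leaving out each library in turn kept 2 of the 7 genes lower and 0 higher, 1 pathway gene lower and 3 higher, and 2787 to 2918 of all genes lower and 3983 to 4255 higher. Log2 fold changes then ran from -0.062 to 0.057 for UFBP1, whose sign turned without siNC replicate 2, siUFBP1 replicate 2 or siUFBP1 replicate 3. DESeq2's size factors and Wald test, limma-voom and both count filters moved no call of the 7. Upper quartile scaling called 5 of the 7 lower, with UFBP1 at -0.14, UFC1 at -0.27, UFSP2 at -0.21 and UFSP1 at -0.019. Library size after removal of markers called 1 lower and 2 higher, with UFBP1 at 0.13, UFL1 at -0.059, UFM1 at 0.0086, UFSP1 at 0.25 and UFSP2 at 0.056. With library size alone the values were 0.80 for UFBP1, 0.61 for UFL1, 0.37 for CDK5RAP3, 0.67 for UFC1, 0.68 for UFM1, 0.92 for UFSP1 and 0.73 for UFSP2. On log2(FPKM + 1), in the same order, they were 0.77, 0.55, 0.33, 0.60, 0.56, 0.78 and 0.67, and on log2(FPKM + 0.1) 0.78, 0.58, 0.34, 0.63, 0.63, 0.88 and 0.70. These 3 settings, none of which corrects for composition, called 0 of the 7 lower and 7 higher, 0 pathway genes lower and 6 higher, and 452, 406 and 406 of all genes lower and 8604, 6625 and 6601 higher. A 2-fold minimum left 0 of the 7 and 0 pathway genes in either direction, and 548 of all genes lower and 2436 higher, against 3043 and 4293 without it. Replicate numbers did not pair the libraries (correlations of deviations for the same number 0.024, -0.019 and 0.018), and a fit with the replicate block gave 2 of the 7 lower and 0 higher, with UFBP1 at 0.0018, UFL1 at -0.19 and CDK5RAP3 at -0.43, and changed no call of the 7. Adding 1 count in place of 0.5 moved no within-library ratio by more than the spread between libraries. A replicate block leaves the difference of a ratio unchanged by construction. FPKM ratios differ from count ratios by a nearly constant length factor, so neither could move these differences much. With the other TBP model, an alternative added after seeing the data, the log2 ratio of UFBP1 to TBP was -0.33 in place of 0.22. Leaving out siNC replicate 2 brought that ratio to 0.11, the ratio to GAPDH from 0.083 to 0.0100, and the log2 ratio of UFSP2 to UFBP1 from -0.077 to -0.0080 and of UFL1 from -0.19 to -0.12. Over all omissions, the log2 ratio to UFBP1 ran from -0.25 to -0.072 for UFM1, from 0.041 to 0.18 for UFSP1 and from -0.13 to -0.0080 for UFSP2, and no ratio changed sign. Depth limits UFM1 and UFSP1 most, with 89 to 502 counts per library.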

Other observations

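Counts differed among the enzymes of the other ubiquitin-like modifiers, and no difference between these groups and the UFMylation genes was tested. Of 7 tested genes for SUMO, a modifier that acts mainly in the nucleus, 6 were lower in the libraries labelled siUFBP1 and 0 were higher (edgeR, adjusted p under 0.05, against 28.4% lower and 40.0% higher over all genes tested). UBA2 and SAE1, the subunits of the SUMO-activating enzyme, stood at log2 fold changes of -0.57 ± 0.052 and -0.64 ± 0.060, and the SUMO ligase PIAS at -0.64 ± 0.065. Of 9 tested genes for NEDD8, the modifier of cullin ligases, 0 were lower and 5 higher, and of 9 tested autophagy conjugation genes 0 were lower and 5 higher. ATG8, the modifier laid on autophagosome membranes, was at 1.16 ± 0.049. Of 2 tested genes for URM1, the modifier itself was higher (1.42 ± 0.140), and UBA1, which activates ubiquitin, was lower (-0.28 ± 0.032). Without siNC replicate 3, siUFBP1 replicate 1 or siUFBP1 replicate 2, 3 NEDD8 genes were higher in place of 5. Scaling bears on these counts. With upper quartile scaling 6 SUMO genes were lower and 0 higher, 2 NEDD8 genes were lower and 2 higher, and 2 autophagy genes were lower and 5 higher. Of all 10729 genes tested, that fit called 3806 (35.5%) lower and 3641 higher. With library size after removal of fat body and silk gland markers 4 SUMO genes were lower and 0 higher. In that fit 5 NEDD8 and 5 autophagy genes were higher and 0 lower, beside 22.8% lower and 45.7% higher over all genes. Library size alone gave 5 SUMO, 9 NEDD8 and 8 autophagy genes higher and 0 lower, where 80.2% of all genes were higher.

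Genes that handle stalled ribosomes and the translocon, on which mammalian UFMylation acts, had a median log2 fold change of -0.27 beside 0.11 for all genes tested. Of 19 tested, 10 were lower and 1 higher, beside 28.4% and 40.0% of all genes tested. The higher gene was the ribosome rescue factor HBS1 at 0.13 ± 0.044, and none was higher without siNC replicate 3 or siUFBP1 replicate 2. The lowest by adjusted p were TRAP delta, a subunit of the translocon-associated protein complex, at -1.33 ± 0.033, and the ATPase TER94 (KWMTBOMO11666), the fly name of valosin-containing protein, at -0.80 ± 0.043. The ribosome recycling factor ABCE1 was at -0.57 ± 0.036 and TRAP alpha at -0.42 ± 0.028. With upper quartile scaling 16 were lower (35.5% of all genes) and 0 higher, with library size after removal of markers 9 were lower and 6 higher (22.8% and 45.7% of all genes), and with library size alone 1 was lower and 14 higher (80.2% of all genes). The part of the shift in tissue markers in any of these values was not tested.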
